A study of Mus musculus with 24 samples.

Results

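Phosphate balance in the kidney was followed through 8 genes, taken by symbol from the deposited gene counts and all found among its 23955 symbols. They were Cyp27b1, Cyp24a1 and Vdr for vitamin D, Slc34a1 and Slc34a3 for phosphate transport, Kl for klotho, and Pth1r and Calcr for the parathyroid hormone and calcitonin receptors. The study profiled mRNA of whole mouse kidney in 6 groups of 4 libraries: Pld4 knockout (KO, PLD4-/-) and wild type (WT, PLD4+/+), each as control on day 0 and on days 5 and 10 of unilateral ureteral obstruction (UUO). In UUO a ureter is tied off, and the blocked kidney loses tubules and scars. The labels give neither strain, age nor sex, nor which part of Pld4 was deleted, and they do not say whether each library came from its own animal. The p-values therefore measure the spread between libraries, which may be technical in part. In the main fit each gene's spread was estimated once over all 6 groups. A group that spreads widely thus also widens the errors of comparisons between other groups.

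The kidney sets the body's phosphate and active vitamin D. In the proximal tubule, Cyp27b1 makes calcitriol, the active hormone, and Cyp24a1 breaks it down. Calcitriol acts through its receptor Vdr. Slc34a1 (NaPi-IIa) and Slc34a3 (NaPi-IIc) carry phosphate back from the filtrate, and parathyroid hormone, through Pth1r, and the bone hormone FGF23, which needs klotho as its co-receptor, withdraw them from the membrane. Parathyroid hormone raises Cyp27b1, while FGF23 lowers it and raises Cyp24a1. Calcr, the calcitonin receptor, is known in the kidney mainly from the thick ascending limb and distal nephron, and outside it from osteoclasts and the brain.

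The promoters of 4 of these genes are shown because Cyp27b1 was the member called between the genotypes and the other 3 were the proximal tubule and klotho transcripts with the largest falls after obstruction. Each line gives the 250 bases before the transcription start in RefSeq's table for GRCm38.p6, on the gene's own strand, at chr10:127047996-127048245 (plus strand) for Cyp27b1, chr13:55399398-55399647 (plus) for Slc34a1, chr2:25234235-25234484 (minus) for Slc34a3 and chr5:150952357-150952606 (plus) for Kl. Capitals mark matches, on either strand, to AGGTCA, a hexamer that nuclear receptors such as Vdr bind, to the related hexamer AGTTCA, to TGACGTCA (the cAMP response element), to GTTAAT (part of the HNF1 site), to the CCAAT box, to the GC box GGGCGG and to the TATA box TATAAA.
Cyp27b1: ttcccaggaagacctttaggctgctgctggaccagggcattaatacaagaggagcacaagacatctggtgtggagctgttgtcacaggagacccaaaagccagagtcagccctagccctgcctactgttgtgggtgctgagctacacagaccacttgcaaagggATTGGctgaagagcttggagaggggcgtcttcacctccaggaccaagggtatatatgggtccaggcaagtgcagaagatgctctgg
Slc34a1: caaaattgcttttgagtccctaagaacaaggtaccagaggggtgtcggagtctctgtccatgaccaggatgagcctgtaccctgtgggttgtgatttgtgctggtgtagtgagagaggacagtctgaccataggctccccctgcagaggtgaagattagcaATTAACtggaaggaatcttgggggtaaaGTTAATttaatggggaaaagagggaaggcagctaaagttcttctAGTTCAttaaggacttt
Slc34a3: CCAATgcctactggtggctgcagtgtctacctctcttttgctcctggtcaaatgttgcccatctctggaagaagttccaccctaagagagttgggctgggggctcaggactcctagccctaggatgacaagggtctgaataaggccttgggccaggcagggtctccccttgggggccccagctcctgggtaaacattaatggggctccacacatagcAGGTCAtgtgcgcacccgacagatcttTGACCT
Kl: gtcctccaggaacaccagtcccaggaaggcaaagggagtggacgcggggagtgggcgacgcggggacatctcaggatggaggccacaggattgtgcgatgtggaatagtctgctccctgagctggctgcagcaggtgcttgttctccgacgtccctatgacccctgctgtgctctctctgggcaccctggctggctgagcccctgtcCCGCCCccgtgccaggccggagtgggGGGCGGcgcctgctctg

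Counting the base before the start as -1, Cyp27b1 held CCAAT at -86 on the opposite strand, so that it is printed as its reverse complement. Slc34a1 held GTTAAT at -89 on the opposite strand and at -61, and AGTTCA at -17. Slc34a3 held AGGTCA at -33 and, on the opposite strand, at -6, with CCAAT at -250. Kl held GGGCGG at -43 on the opposite strand and at -17. Among 32851 promoters of the same length, AGGTCA was found in 14%, AGTTCA in 11.8%, TGACGTCA in 1.55%, GTTAAT in 6.43%, CCAAT in 33.8%, GGGCGG in 32.7% and TATAAA in 12.4%. A match describes letters only. The table held promoters for 7 of the 8 genes, and Cyp24a1 is named without one.

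Libraries held 9800888 to 22542866 counts, and 15080 genes were tested. Pld4 transcript was present in every library, at 6.70 to 12.6 CPM (the gene's reads scaled to the library total, with TMM factors) in KO and 5.10 to 8.25 CPM in WT on day 0, 13.4 to 32.6 CPM in KO and 46.5 to 50.9 CPM in WT on day 5, and 24.3 to 50.3 CPM in KO and 54.6 to 116.6 CPM in WT on day 10. Its KO to WT log2 fold change was 0.50 ± 0.29 (SE) on day 0 (adjusted p = 0.438), -1.25 ± 0.27 on day 5 (0.0724) and -1.13 ± 0.27 on day 10 (0.0331), so on day 0 it gives no check of the labels, by which the groups are named here. 1 library differed in sex-linked genes. KO day 0 replicate 4 had 877.7 CPM of Xist, the RNA of the inactive X chromosome, against at most 0.692 CPM in the other 23 libraries, and 0.389 CPM of the Y-linked Ddx3y, against 58.0 to 98.8 CPM in the others. Its 18 proximal tubule markers summed to 37190 CPM, against 67925 to 74814 CPM in the other KO day 0 libraries and 82301 to 96447 CPM in WT day 0, and Slc7a13 and Acsm3 among them were at 3.89 and 7.63 CPM, against at least 1821 and 1630 CPM in those KO libraries. These sums rest in large part on Kap, the most abundant of the markers on day 0. Kap had 13993 CPM in that library, against 40622 to 48011 CPM in the other KO day 0 libraries and 55688 to 64513 CPM in WT day 0. WT day 10 replicates 2 and 3 had neutrophil markers summing to 3766 and 6329 CPM, against at most 27.2 CPM in the other 22 libraries, and proximal tubule markers summing to 921 and 2779 CPM, against 9514 and 28596 CPM in WT day 10 replicates 1 and 4. Results that rest on these 3 libraries are given without them where a call, a direction or a value by over 1.5 times changes. These genes and libraries were singled out after their values were seen.

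By length-scaled level (FPKM), the 8 genes spanned a wide range in control kidneys. Slc34a1 was highest, at 1298 ± 315 FPKM in KO and 1411 ± 89.2 FPKM in WT on day 0 (SD, n = 4 each). Pth1r followed with 194 ± 25.7 FPKM in KO and 227 ± 13.8 FPKM in WT, then Kl with 154 ± 30.9 and 138 ± 3.73 FPKM in KO and WT. Vdr was lower again, at 51.0 ± 9.90 FPKM in KO and 42.7 ± 2.27 FPKM in WT. Slc34a3, the second phosphate carrier, had 13.02 ± 6.02 FPKM in KO and 13.6 ± 2.48 FPKM in WT, close to Cyp24a1 with 20.1 ± 13.3 FPKM in KO and 11.8 ± 3.40 FPKM in WT. Cyp27b1 had 1.01 ± 0.316 FPKM in KO and 1.06 ± 0.333 FPKM in WT. Calcr was near the lower end of detection, at 0.131 ± 0.0883 FPKM in KO and 0.135 ± 0.0339 FPKM in WT. On day 10 in WT the order had changed, with the mean of Cyp27b1 (7.32 ± 4.40 FPKM) above that of Slc34a3 (1.57 ± 1.91 FPKM), although their libraries overlapped.

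**Figure D1:**
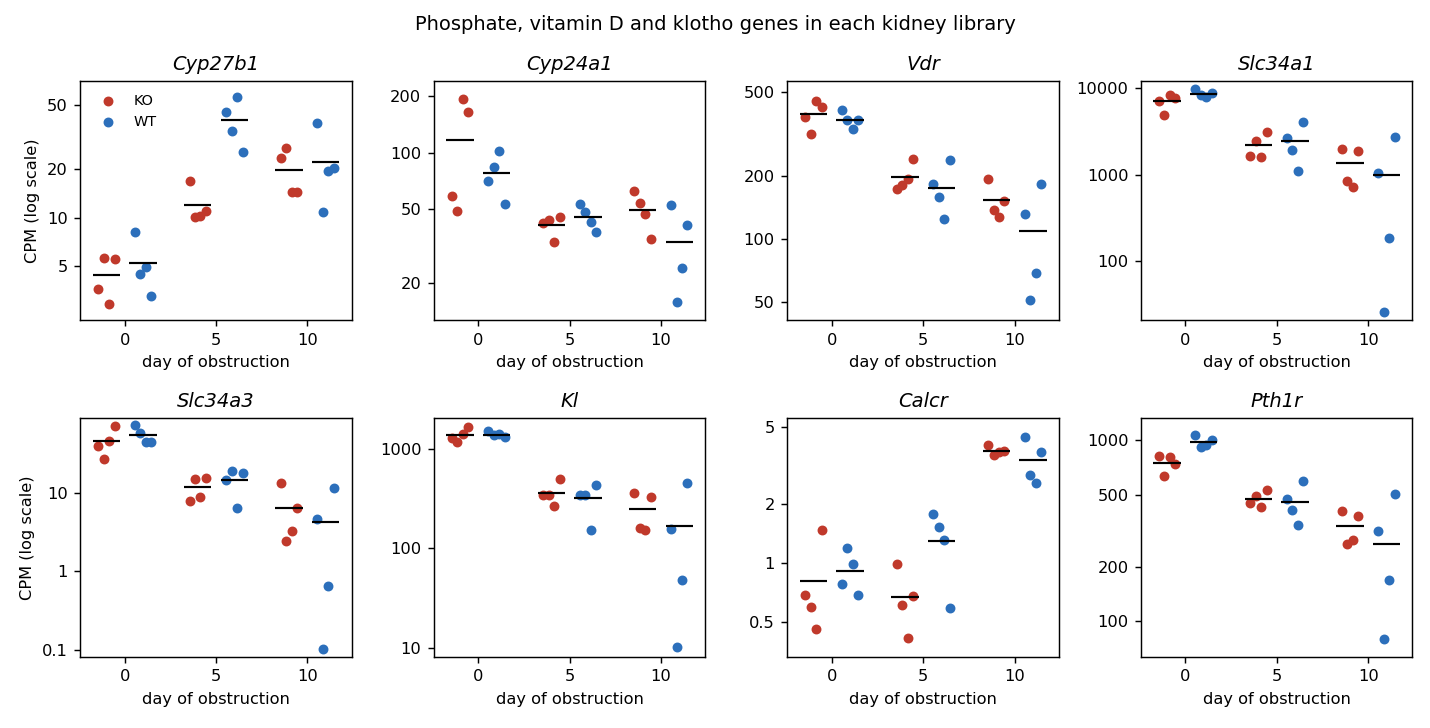
CPM of the 8 genes in each of the 24 libraries (log axis), KO left of WT within each day; points are libraries and bars are group means. Slc34a1, Slc34a3, Kl, Pth1r and Vdr are lower after obstruction, Cyp27b1 is higher, Calcr is higher on day 10, and WT day 10 replicates 2 and 3 give the lowest values of Slc34a1, Slc34a3, Kl, Pth1r and Vdr.

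With all libraries kept, 6 of the 8 genes had fallen by day 10 of obstruction and Cyp27b1 and Calcr had risen, in both genotypes. In edgeR's quasi-likelihood test with Benjamini-Hochberg adjustment over all genes at 0.05, 2 members were higher and 6 lower on day 10 than on day 0 in KO, where 28.3% of all genes were called higher and 26% lower. The same 2 and 6 were called in WT, against 37.8% and 30.3% of all genes. On day 5, 1 was higher and 4 lower in KO (22.4% and 17% of all genes), and 1 was higher and 5 lower in WT (31% and 25.6%). Without KO day 0 replicates 3 and 4, 4 members were lower in KO on day 10 and 0 on day 5. In that fit 40.5% and 24.5% of all genes were called in either direction. Without WT day 10 replicates 2 and 3, 5 members were lower in WT on day 10, where 56.4% of all genes were called. Cyp24a1 was among those lost in each genotype on day 10. Groups did not overlap for 7 members in KO and 8 in WT on day 10 (56.6% and 61.4% of all genes) and for 7 in KO and 6 in WT on day 5 (39.6% and 53.1%). The median log2 fold change of the members on day 10 was -1.30 in KO, beside 0.04 over all genes, and -1.83 in WT, beside 0.12. On day 5 these medians were -1.25 beside 0.01 in KO and -1.10 beside 0.08 in WT. The KO and WT comparisons with day 0 use separate controls, but the 2 days of a genotype share theirs. On the authors' FPKM scale the median gene itself lay 0.47 to 0.54 higher (log2) after obstruction than on day 0, against 0.01 to 0.12 on the count scale. Relative to that median the day 5 log2 fold change of Kl in KO was -1.83 by FPKM and -1.94 by counts. On day 10 in WT the FPKM values were the deeper ones for Slc34a1 (-4.50, against -3.24 by counts) and Kl (-3.85, against -3.18), and the shallower one for Slc34a3 (-3.33, against -3.82). Of the genes called after obstruction, 80.2% to 95.5% were higher on log2(FPKM + 1), against 52.1% to 56.8% by counts. In bulk tissue, fewer cells of a type and less RNA per cell cannot be told apart. Of the 18 proximal tubule markers, 16 were called lower on day 10 in KO and 17 in WT. They summed to 7150 to 21385 CPM in KO on day 10 against 37190 to 74814 CPM in KO on day 0, and to 921 to 28596 CPM in WT on day 10 against 82301 to 96447 CPM in WT on day 0, and their part in the result was not tested.

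For each member the 6 groups were ordered by mean CPM, and neighbouring groups were checked for overlap. Neighbours in such an order are close by construction, and the share over all genes was not taken. The steps are thus a description, not a trait of these members. Slc34a1 and Slc34a3 had 1 step without overlap, with WT day 5 below KO day 0, and Kl had 1, with KO day 5 below KO day 0. For Vdr the step lay between KO day 5 and WT day 0, for Cyp27b1 between the same groups but with KO day 5 higher, and for Calcr between WT day 10 and WT day 5. Pth1r had steps with KO day 0 below WT day 0 and KO day 5 below KO day 0. All other neighbours overlapped, and in Cyp24a1 every pair did.

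**Figure D2:**
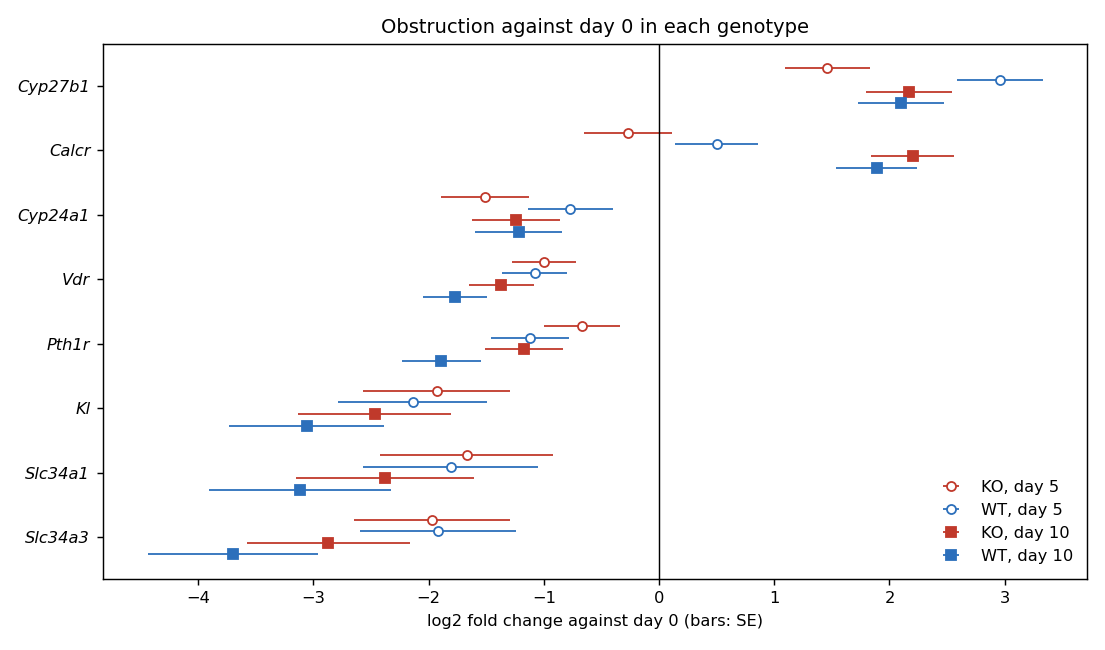
Log2 fold change (edgeR, bars are SE) of each gene after 5 and 10 days of UUO against day 0, KO beside WT. Cyp27b1 lies above 0 in all 4 comparisons and Calcr on day 10, while the other 6 lie below 0, most deeply Slc34a3 in WT on day 10 at -3.70.

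Cyp27b1, the enzyme that makes calcitriol, rose with obstruction in both genotypes and was the member called between genotypes. On day 0 it had 3.61, 5.61, 2.89 and 5.53 CPM in KO and 8.13, 4.51, 4.93 and 3.27 CPM in WT. On day 5 it had 16.8, 10.1, 10.2 and 11.03 CPM in KO and 45.3, 34.7, 56.5 and 25.7 CPM in WT. On day 10 it had 23.4, 26.96, 14.4 and 14.4 CPM in KO and 38.7, 10.8, 19.5 and 20.4 CPM in WT. Every obstructed library lay above every day 0 library, and on day 5 every KO library lay below every WT library, while on days 0 and 10 the genotypes overlapped. The rise on day 5 was 2.75-fold in KO (log2 fold change 1.46 ± 0.37, adjusted p = 0.00397) and 7.77-fold in WT (2.96 ± 0.37, adjusted p = 2.38e-06). The day 10 rise was 4.51-fold in KO (2.17 ± 0.37, adjusted p = 7.28e-05) and 4.29-fold in WT (2.10 ± 0.37, adjusted p = 4.09e-05). Macrophages can also make this enzyme, and 6 of 7 macrophage markers were called higher on day 5 and 7 of 7 on day 10, in both genotypes. Their sums were 757 to 839 CPM in KO and 649 to 719 CPM in WT on day 5, with no marker called between the genotypes, and 802 to 1021 CPM in KO and 791 to 2926 CPM in WT on day 10, against 249 to 318 CPM in KO and 137 to 203 CPM in WT on day 0. Their part in the rise was not tested. Between the days, Cyp27b1 stood 0.72 ± 0.34 higher on day 10 than on day 5 in KO (adjusted p = 0.465) and 0.86 ± 0.34 lower in WT (log2 fold change -0.86, adjusted p = 0.105), neither of which passed. Without WT day 10 replicate 1, the WT value was -1.28 (adjusted p = 0.0128).

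KO kidneys had 3.36 times less Cyp27b1 than WT kidneys on day 5, a log2 fold change of -1.75 ± 0.35 (95% interval -2.47 to -1.02, adjusted p = 0.0404). It was the only member called on that day, when 0.146% of all genes passed in either direction and 0.0796% as lower in KO. It was also the only member whose groups did not overlap, as in 4.59% of all genes. DESeq2 called the same single member. The adjusted p lies near the threshold: it was above 0.05 in 11 of the 24 fits that left out 1 library, with log2 fold changes of -1.56 to -1.98 over all 24. These were the fits without WT day 0 replicates 2 or 3, KO day 0 replicates 1 or 2, WT day 5 replicates 1, 2 or 3, KO day 5 replicates 2, 3 or 4, or KO day 10 replicate 1, where it was 0.0521 to 0.213. Leaving out KO day 0 replicate 4 gave -1.75 (adjusted p = 0.0472), and without WT day 10 replicates 2 and 3 it was -1.77 (adjusted p = 0.00607). Leaving out KO day 0 replicates 3 and 4 together ended the call (-1.77, adjusted p = 0.0589). The difference between the genotypes in the day 5 response was -1.50 ± 0.51 (95% interval -2.56 to -0.44), which did not pass after adjustment in edgeR (adjusted p = 0.218). No KO to WT difference passed on day 0 (-0.25 ± 0.38, adjusted p = 0.837) or day 10 (-0.18 ± 0.34, adjusted p = 0.82).

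**Figure D3:**
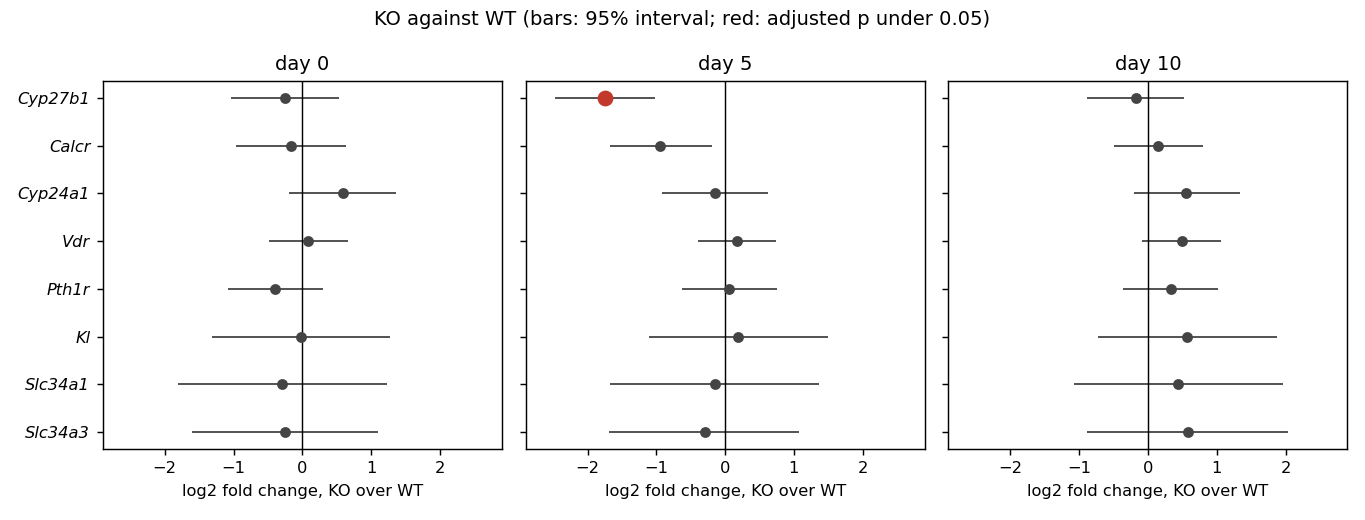
KO against WT log2 fold change of each gene on days 0, 5 and 10 (edgeR, 95% intervals). Cyp27b1 on day 5, at -1.75, is the value past the adjusted threshold. The intervals of Slc34a1, Slc34a3 and Kl are the widest, and on each day they carry the spread of all 6 groups.

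Cyp24a1, which inactivates calcitriol, fell by day 10 in both genotypes. On day 0 Cyp24a1 had 58.3, 48.6, 193.5 and 164.3 CPM in KO and 70.7, 83.9, 102.5 and 52.8 CPM in WT. On day 5 Cyp24a1 had 41.8, 43.4, 33.1 and 44.9 CPM in KO and 53.2, 47.9, 42.2 and 37.7 CPM in WT. On day 10 Cyp24a1 had 62.2, 53.8, 46.5 and 34.6 CPM in KO and 52.2, 15.8, 23.96 and 41.0 CPM in WT. KO day 0 replicates 3 and 4 were the 2 highest of all 24 libraries, and no neighbouring groups in the order of means were separate. In KO the log2 fold change was -1.51 ± 0.38 on day 5 (adjusted p = 0.00376) and -1.24 ± 0.38 on day 10 (adjusted p = 0.00874). These calls rest on those 2 libraries, without which the values were -0.37 (adjusted p = 0.444) and -0.10 (adjusted p = 0.832). Without replicate 3 alone the day 10 value was -0.88 (adjusted p = 0.0569), and without replicate 4 alone the values were -1.30 (0.0149) on day 5 and -1.03 (0.0349) on day 10. In WT it was -0.77 ± 0.37 on day 5 (adjusted p = 0.0815, and 0.0478 with DESeq2) and -1.22 ± 0.38 on day 10 (adjusted p = 0.0073). Without WT day 10 replicates 2 and 3 the WT day 10 value was -0.70 (adjusted p = 0.155). On log2(FPKM + 1) the values were -0.63 on day 5 and -0.38 on day 10 in KO, and -0.08 and -0.60 in WT. Of the 11 settings other than leaving out 1 library, 5 lost the day 10 call in KO and 4 lost it in WT. The day 5 call in KO was lost under 4 of the 11. KO and WT differed by 0.59 ± 0.37 on day 0, -0.15 ± 0.37 on day 5 and 0.56 ± 0.37 on day 10, with adjusted p = 0.494, 0.888 and 0.494. The day 0 value turned to -0.53 (adjusted p = 0.683) without KO day 0 replicates 3 and 4, and the day 10 value was 0.07 without WT day 10 replicates 2 and 3. Pfdn4 overlaps Cyp24a1 on the opposite strand by 718 bases in GENCODE M21 and had 9.27 to 23.8 CPM, and the strand setting of the counts is not given in the sources used here.

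The balance of the pair was taken as the log2 ratio of Cyp24a1 to Cyp27b1 counts within each library. Day 0 ratios were 4.00, 3.10, 6.04 and 4.88 in KO and 3.11, 4.21, 4.36 and 4.00 in WT. Day 5 ratios were 1.31, 2.10, 1.69 and 2.02 in KO and 0.23, 0.47, -0.42 and 0.55 in WT. Day 10 ratios were 1.41, 1.00, 1.69 and 1.26 in KO and 0.43, 0.55, 0.30 and 1.01 in WT. Each obstructed group lay wholly below its own day 0 group, and on day 5 the KO libraries lay wholly above the WT libraries. The mean fell by 2.73 on day 5 and 3.17 on day 10 in KO, and by 3.71 and 3.35 in WT (differences -2.73, -3.17, -3.71 and -3.35). Each of these had p = 0.0286 in a two-sided exact permutation test, the smallest that 4 against 4 allows, and 0.0667 after adjustment over 14 ratio tests, so none passed the adjusted threshold. The KO day 0 mean of 4.51 includes replicates 3 and 4, at 6.04 and 4.88, on which the Cyp24a1 calls in KO rest. Without 1 library at a time the KO differences ranged from -3.19 to -2.21 on day 5 and from -3.64 to -2.66 on day 10. They were not taken without both replicates. KO exceeded WT by 1.57 on day 5 (exact p = 0.0286, adjusted 0.0667), by 0.77 on day 10 (exact p = 0.0571, adjusted 0.114) and by 0.59 on day 0 (exact p = 0.486, adjusted 0.68). In WT on day 5 the counts of both genes were close to equal, with linear ratios of 0.747 to 1.47, against 2.48 to 4.29 in KO.

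**Figure D4:**
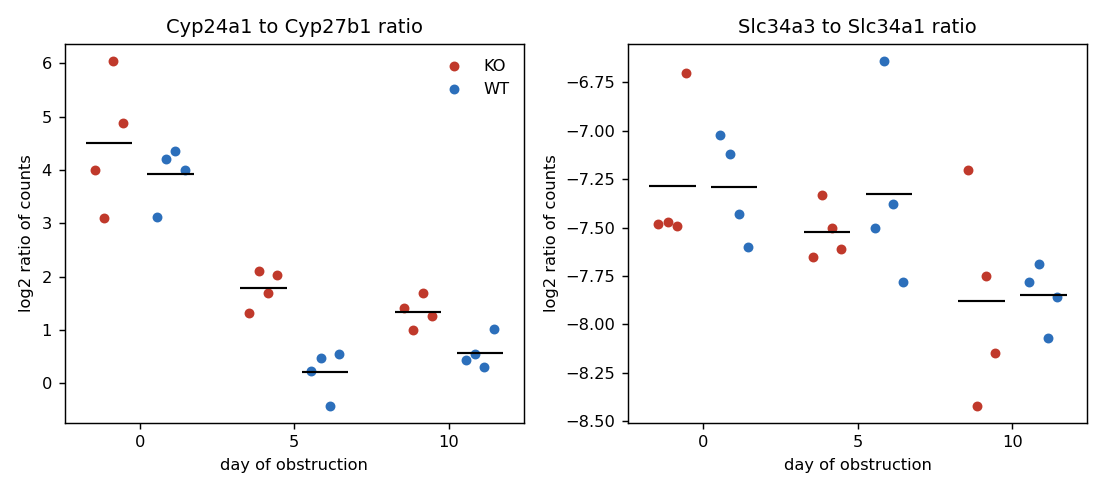
Log2 ratios of counts per library for Cyp24a1 to Cyp27b1 and for Slc34a3 to Slc34a1, by day, KO left of WT; bars are means. The first ratio is lower in every obstructed group than on day 0 and higher in KO than in WT on day 5, while in the second KO day 0 replicate 4 stands above its group at -6.70.

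Vdr, the calcitriol receptor, fell on both days in both genotypes. Its day 0 levels were 380.1, 315.3, 452.9 and 426.9 CPM in KO and 410.7, 368.9, 334.5 and 370.5 CPM in WT. Its day 5 levels were 173.8, 181.1, 194.2 and 241.3 CPM in KO and 183.0, 158.2, 124.1 and 236.9 CPM in WT. Its day 10 levels were 192.3, 138.0, 127.9 and 152.5 CPM in KO and 131.6, 51.3, 69.1 and 182.5 CPM in WT. Every obstructed library lay below every day 0 library, and the genotypes overlapped on each day. On day 5 it was 1.99-fold lower in KO (95% interval of the log2 fold change -1.57 to -0.42, adjusted p = 0.00781) and 2.11-fold lower in WT (-1.08 ± 0.28, adjusted p = 0.00271). On day 10 the log2 fold change was -1.37 ± 0.28 in KO (adjusted p = 0.000414) and -1.77 ± 0.28 in WT (adjusted p = 1.58e-05). With KO day 0 replicate 4 left out, the KO values were -0.95 (adjusted p = 0.0186) and -1.33, and without WT day 10 replicates 2 and 3 the WT day 10 value was -1.21. Leaving out KO day 0 replicates 3 and 4 together ended the day 5 KO call (-0.80, adjusted p = 0.0913). Of the 11 settings other than leaving out 1 library, 4 lost the day 5 call in KO and 3 lost it in WT. On log2(FPKM + 1), where the median gene lies higher, the day 5 values were -0.39 in KO and -0.45 in WT. KO and WT differed on day 10 by 0.49 ± 0.28 (adjusted p = 0.425). That became -0.05 without WT day 10 replicates 2 and 3, and 0.85 (adjusted p = 0.0326) without WT day 10 replicate 4.

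Slc34a1, the main phosphate carrier of the brush border, was the most abundant member and fell by day 10 in both genotypes. On day 0 it had 7116, 4924, 8346 and 7617 CPM in KO and 9589, 8247, 7764 and 8672 CPM in WT. On day 5 it had 1623, 2440, 1604 and 3118 CPM in KO and 2670, 1939, 1087 and 4047 CPM in WT. On day 10 it had 1961, 837.9, 721.2 and 1846 CPM in KO and 1045, 26.1, 185.5 and 2685 CPM in WT. All obstructed libraries lay below all day 0 libraries, and the 4 WT day 10 libraries spread the most on a log scale, with replicates 2 and 3 lowest. The day 10 fall was 5.22-fold in KO (log2 fold change -2.38 ± 0.77, adjusted p = 0.0129) and 8.69-fold in WT (-3.12 ± 0.79, adjusted p = 0.00166). The WT value was -2.17 without WT day 10 replicates 2 and 3 and -4.32 without replicate 4. The KO value was -2.34 without KO day 0 replicate 4 (adjusted p = 0.0228), and without KO day 0 replicates 3 and 4 it no longer passed (-2.15, adjusted p = 0.0642), nor did it on log2(FPKM + 1) in limma (-1.88, adjusted p = 0.0531). On day 5 it was -1.67 ± 0.75 in KO, which did not pass (adjusted p = 0.0816), and -1.81 ± 0.76 in WT, which did (adjusted p = 0.0459). DESeq2 called the day 5 fall in KO as well (-1.71, adjusted p = 0.03), and so did the fit without WT day 10 replicates 2 and 3 (-1.66, adjusted p = 0.00166). The WT call at day 5 was lost in 20 of the 24 fits without 1 library (adjusted p = 0.0512 to 0.13) and was kept without WT day 5 replicate 4 or WT day 10 replicates 2, 3 or 4. The day 5 groups did not overlap in either genotype.

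Slc34a3, the second sodium-phosphate carrier of the proximal tubule, fell alongside it from a much lower level. Day 0 values were 39.8, 27.7, 46.5 and 73.1 CPM in KO and 73.9, 59.3, 45.1 and 44.8 CPM in WT. Day 5 values were 8.04, 15.1, 8.85 and 15.9 CPM in KO and 14.7, 19.3, 6.49 and 18.4 CPM in WT. Day 10 values were 13.3, 2.42, 3.33 and 6.49 CPM in KO and 4.74, 0.101, 0.661 and 11.5 CPM in WT. Day 0 libraries were all higher than obstructed ones, and the lowest values were those of WT day 10 replicates 2 and 3. The log2 fold change on day 5 was -1.97 ± 0.68 in KO (adjusted p = 0.0267) and -1.92 ± 0.68 in WT (adjusted p = 0.0208). The day 10 value was -2.87 ± 0.71 in KO (adjusted p = 0.00205) and -3.70 ± 0.74 in WT (adjusted p = 0.000174), the deepest fall among the 8 genes. Without KO day 0 replicate 4 the KO day 5 call was lost (-1.67, adjusted p = 0.0748), as it was without KO day 5 replicate 1 (0.0709) or 3 (0.0752), and the KO day 10 value was -2.58. Leaving out WT day 0 replicate 1 (adjusted p = 0.0516) or WT day 5 replicate 3 (0.0723) ended the WT day 5 call, and the WT day 10 value was -2.75 without WT day 10 replicates 2 and 3 and -4.85 without replicate 4.

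The ratio of the 2 carriers, log2 of Slc34a3 over Slc34a1 counts, averaged -7.28 ± 0.39 in KO and -7.29 ± 0.27 in WT on day 0, -7.52 ± 0.14 in KO and -7.33 ± 0.48 in WT on day 5, and -7.88 ± 0.53 in KO and -7.85 ± 0.16 in WT on day 10 (SD, n = 4 each). KO day 0 replicate 4 was at -6.70, and the other 3 KO day 0 libraries averaged -7.48 ± 0.01. In WT the day 10 libraries lay wholly below the day 0 libraries, by -0.56 (exact permutation p = 0.0286, adjusted 0.0667), while in KO the difference was -0.59 with overlapping groups (exact permutation p = 0.2, adjusted 0.35). KO and WT differed by 0.01, -0.20 and -0.03 on days 0, 5 and 10 (exact permutation p = 1, 0.657 and 0.914).

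Kl, which encodes klotho, fell on both days in both genotypes. On day 0 it had 1308, 1186, 1415 and 1671 CPM in KO and 1523, 1390, 1418 and 1321 CPM in WT. On day 5 it had 345.3, 346.0, 267.3 and 507.2 CPM in KO and 347.3, 344.9, 155.3 and 434.0 CPM in WT. On day 10 it had 363.8, 159.5, 152.2 and 331.9 CPM in KO and 156.6, 10.1, 47.8 and 463.2 CPM in WT. On day 0 the WT libraries lay within the wider KO range, and every obstructed library of either genotype lay below it. The log2 fold change on day 5 was -1.93 ± 0.64 in KO (adjusted p = 0.022) and -2.14 ± 0.65 in WT (adjusted p = 0.00838), and on day 10 -2.47 ± 0.66 in KO (adjusted p = 0.00353) and -3.06 ± 0.67 in WT (adjusted p = 0.000451). Without KO day 0 replicate 4 the KO values were -1.83 (adjusted p = 0.043) and -2.37, while the WT day 10 value was -2.16 without WT day 10 replicates 2 and 3 and -4.27 without replicate 4. Kl missed the threshold on day 5 in KO without KO day 5 replicate 1 (0.0501) or 3 (0.0655), or without KO day 0 replicates 3 and 4 together (-1.75, adjusted p = 0.102). That call was lost under 4 of the 11 settings other than leaving out 1 library. On log2(FPKM + 1) the KO day 5 value was -1.35. KO to WT differences were -0.02 ± 0.62, 0.19 ± 0.62 and 0.57 ± 0.62 on days 0, 5 and 10 (adjusted p = 0.996, 0.914 and 0.678). The day 10 value was -0.31 without WT day 10 replicates 2 and 3, and 1.80 (adjusted p = 0.0381) without WT day 10 replicate 4. Markers of the distal convoluted and connecting tubule, where klotho is also made, summed to 508 to 950 CPM in KO on day 10 against 3916 to 7226 CPM in KO on day 0, and to 132 to 1539 CPM in WT on day 10 against 3693 to 4371 CPM in WT on day 0. Of 7 such markers, 7 in KO and 6 in WT were called lower on day 10, and their part in the fall of Kl was not tested.

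Pth1r, the parathyroid hormone receptor, fell by day 10 in both genotypes, with smaller fitted log2 fold changes than those of the phosphate carriers. Its day 0 levels were 816.7, 634.0, 814.7 and 742.7 CPM in KO and 1069, 922.9, 947.0 and 1005 CPM in WT. Its day 5 levels were 450.8, 492.1, 425.4 and 528.7 CPM in KO and 472.5, 409.9, 341.6 and 593.3 CPM in WT. Its day 10 levels were 405.8, 268.3, 281.9 and 381.8 CPM in KO and 315.9, 79.1, 168.4 and 502.4 CPM in WT. On day 0 every KO library lay below every WT library, which was also so, in either direction, for 19.6% of all genes, and later the genotypes overlapped. That day 0 difference was -0.39 ± 0.33 and did not pass (adjusted p = 0.643), except in the fit of these 2 groups alone (-0.37, adjusted p = 0.0472). No member passed on day 0 without KO day 0 replicate 4 either. The log2 fold change on day 5 was -0.67 ± 0.33 in KO (adjusted p = 0.118, groups not overlapping) and -1.12 ± 0.34 in WT (adjusted p = 0.00804). The day 10 value was -1.17 ± 0.34 in KO (adjusted p = 0.00623) and -1.89 ± 0.34 in WT (adjusted p = 6.7e-05). Without WT day 10 replicates 2 and 3 the KO day 5 value was -0.66 and passed (adjusted p = 0.00553), and the WT day 10 value was -1.24. On log2(FPKM + 1) the values were -0.08 in KO and -0.49 in WT on day 5, and -0.58 and -1.55 on day 10. The WT day 5 and KO day 10 calls were each lost under 3 of the 11 settings other than leaving out 1 library. The gene Myl3, whose annotation overlaps Pth1r by 5285 bases on the opposite strand, had at most 0.466 CPM.

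Calcr, the calcitonin receptor, was the least abundant member and rose late. Day 0 values were 0.687, 0.597, 0.457 and 1.48 CPM in KO and 0.778, 1.19, 0.987 and 0.687 CPM in WT. Day 5 values were 0.991, 0.607, 0.413 and 0.679 CPM in KO and 1.78, 1.53, 1.31 and 0.591 CPM in WT. Day 10 values were 4.05, 3.60, 3.71 and 3.76 CPM in KO and 4.45, 2.83, 2.58 and 3.70 CPM in WT. All 8 day 10 libraries lay above all 16 earlier ones. The coefficient of variation of the KO day 10 libraries was 5.15%, at 61 to 69 counts each. Sampling of reads at such counts spreads libraries by more than that, so the value does not show tight expression. Day 10 exceeded day 0 by 2.20 ± 0.36 in KO (4.60-fold, adjusted p = 4.04e-05) and by 1.89 ± 0.35 in WT (3.72-fold, adjusted p = 7.88e-05). Without KO day 0 replicate 4 the KO value was 2.70, and without WT day 10 replicates 2 and 3 the WT value was 2.18. Day 5 did not differ from day 0 past the threshold in KO (-0.27 ± 0.38, adjusted p = 0.594, and 0.22 without KO day 0 replicate 4) or WT (0.50 ± 0.36, adjusted p = 0.239, and 0.80, adjusted p = 0.0468, without WT day 5 replicate 4).

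Calcr was also the member called between day 10 and day 5, in both genotypes. In KO it was 2.48 ± 0.35 higher on day 10 (adjusted p = 0.0063), as 1 of the 3 genes, or 0.0199% of all tested, that passed in that comparison, and this was lost without KO day 5 replicate 4 (2.47, adjusted p = 0.0577). In WT it was 1.39 ± 0.33 higher (adjusted p = 0.0127), where 10.8% of all genes passed. Its groups did not overlap in either genotype, as in 8.2% of all genes in KO and 6.15% in WT, and in KO those of Pth1r did not either. The WT value missed the threshold once WT day 10 replicates 2 and 3 were left out (1.64, adjusted p = 0.229), and then no gene of 15294 passed in edgeR and 1 member had an unadjusted p under 0.05. With the replicate number as a block, Vdr (-0.75, adjusted p = 0.0417) and Slc34a3 (-2.10, adjusted p = 0.047) were also called lower on day 10 than on day 5 in WT. Without WT day 10 replicate 4, Vdr (-1.07), Slc34a1 (-2.54), Slc34a3 (-2.97), Kl (-2.17) and Pth1r (-1.28) were called lower. Between genotypes on day 5, Calcr differed by -0.94 ± 0.36 (adjusted p = 0.287), with WT day 5 replicate 4 the only WT library within the KO range, and by -1.21 (adjusted p = 0.0243) without it. Osteoclast markers moved too, of which Acp5, an enzyme that macrophages also make, averaged 41.3 CPM in KO and 100.5 CPM in WT on day 10, against 75.8 CPM in KO and 93.9 CPM in WT on day 0. Ctsk, the bone collagenase, had 30.7 to 36.9 CPM in KO and 25.2 to 39.5 CPM in WT on day 10, against 2.74 to 8.11 CPM in KO and 1.99 to 3.86 CPM in WT on day 0. Dcstamp, a fusion receptor of osteoclasts, had 0.823 to 1.14 CPM in KO on day 10, against 0 to 0.119 CPM in KO on day 0, and 1.32 to 2.13 CPM in WT on day 10, against 0 to 0.0897 CPM in WT on day 0. Ocstamp was at 0 in WT day 0. The 7 listed markers summed to 86.6 to 102 CPM in KO on day 10 against 82.9 to 94.4 CPM in KO on day 0, and to 80.8 to 588 CPM in WT on day 10 against 97.2 to 116 CPM in WT on day 0. The high WT sums were those of replicates 2 and 3, at 428 and 588 CPM, against 80.8 and 89.8 CPM in replicates 1 and 4. Replicates 2 and 3 were also the libraries with high neutrophil marker sums. Among the 7 listed markers, Mmp9 had the widest range in WT on day 10, from 2.80 to 356.7 CPM. Its mean there was 147.9 CPM, against 2.24 CPM in KO on day 10. Acp5 ranged from 32.6 to 167.7 CPM in WT on day 10. The high sums are thus not shown to be an osteoclast signal, and their source was not tested. Of 5 osteoclast markers tested, 3 were called higher and 1 lower on day 10 in KO, and 4 higher in WT. In the nephron, 4 of 5 thick ascending limb markers were called lower on day 10 in KO and 5 of 5 in WT. So were 7 of 9 collecting duct markers in KO and 9 of 9 in WT. The part of any of these cell types in the rise of Calcr was not tested.

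Between genotypes, no member passed on day 0 or day 10 in edgeR or DESeq2, and none had an unadjusted p under 0.05 on those days, when 4.18% and 1.41% of all genes passed. On day 10 no member's groups were separate, as were those of 3.34% of all genes. The members' median log2 fold change between KO and WT was -0.20 on day 0, -0.15 on day 5 and 0.47 on day 10, beside 0.01, 0.02 and -0.02 over all genes. The day 10 values of Slc34a1 (0.44 ± 0.73), Slc34a3 (0.58 ± 0.70) and Pth1r (0.33 ± 0.33) turned to -0.48, -0.35 and -0.30 without WT day 10 replicates 2 and 3, and were 1.66, 1.74 and 0.82 without WT day 10 replicate 4, none of which passed. The value of Slc34a1 was 1.93 on log2(FPKM + 1), also not called, and that of Slc34a3 was -0.08 without KO day 10 replicate 1. The difference between the KO and WT responses passed for no member on day 5 (0.564% of all genes) or day 10 (3.25%) in edgeR or DESeq2, with 1 member, Cyp27b1, at an unadjusted p under 0.05 on day 5 and none on day 10. On day 10 these differences were 0.74 ± 1.04 for Slc34a1, 0.83 for Slc34a3, 0.59 for Kl, 0.72 ± 0.47 for Pth1r and 0.07 ± 0.51 for Cyp27b1, so that a difference of 1 log2 unit in the carriers lay within the error. These were, without WT day 10 replicates 2 and 3, -0.20 for Slc34a1, -0.12 for Slc34a3, -0.30 for Kl, 0.08 for Pth1r and -0.35 for Cyp27b1, while without WT day 10 replicate 4 they were 1.94 for Slc34a1, 1.98 for Slc34a3 and 1.81 for Kl, and none of these passed. KO day 0 libraries also held more T cell marker RNA than WT day 0 libraries, with sums of 17.6 to 32.9 CPM against 3.40 to 7.73 CPM and 5 of 5 markers called higher. Of the macrophage markers, whose sums did not overlap on day 0, 4 of 7 were called higher in KO, as were 2 of 6 fibroblast markers. Their part in the comparisons with KO day 0 was not tested.

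Set against the mean log2 level of the 18 proximal tubule markers in the same library, the members parted. The group means of Slc34a1 lay between 2.08 and 2.62 log2 units above that mean, and those of Kl between -0.37 and 0.31. Within WT day 10, Slc34a1 was at 1.16 in replicate 2, against 2.27 to 2.63 in the other 3 libraries. Slc34a3 was at -5.54 in KO and -5.50 in WT on day 10, against -4.66 in KO and -4.76 in WT on day 0. Pth1r moved the other way, to 0.42 in KO and 1.41 in WT on day 10, against -0.58 in KO and -0.59 in WT on day 0. Vdr was at -0.71 in KO and 0.25 in WT on day 10, against -1.52 in KO on day 0 and -2.03 to -1.96 across the WT libraries on day 0. Cyp27b1 was at -3.69 in KO and -1.99 in WT on day 10, against -8.85 to -7.07 across KO and -8.80 to -7.63 across WT libraries on day 0. Cyp24a1 was at -2.35 in KO and -1.42 in WT on day 10, against -3.52 in KO and -4.29 in WT on day 0. Calcr was at -5.98 in KO and -4.55 in WT on day 10, against -10.34 in KO and -10.50 in WT on day 0. In WT on day 10 the highest values were those of replicates 2 and 3, with Pth1r at 2.75 and 2.13, against 0.905 in replicate 1 and -0.148 in replicate 4, and Vdr at 2.13 and 0.845, against -0.357 and -1.61. These values are a description with no test, and KO day 0 replicate 4 shifts its group. The marker mean itself was 9.57 there, against 10.15 to 10.44 in the other 3 KO day 0 libraries. Among the markers, Slc7a13 and Acsm3 were at 3.89 and 7.63 CPM there, against at least 1821 and 1630 CPM in those libraries. A lower marker mean raises every distance taken from it. In that library Slc34a1 was at 3.32, against 2.12 to 2.58 in the other 3 libraries, Kl at 1.13, against 0.01 to 0.06, and Slc34a3 at -3.38, against -5.35 to -4.90. Without it the KO day 0 means were 2.39 for Slc34a1, 0.03 for Kl, -5.09 for Slc34a3, -0.76 for Pth1r and -1.75 for Vdr. For Cyp24a1 and Calcr they were -3.95 and -10.82.

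**Figure D5:**
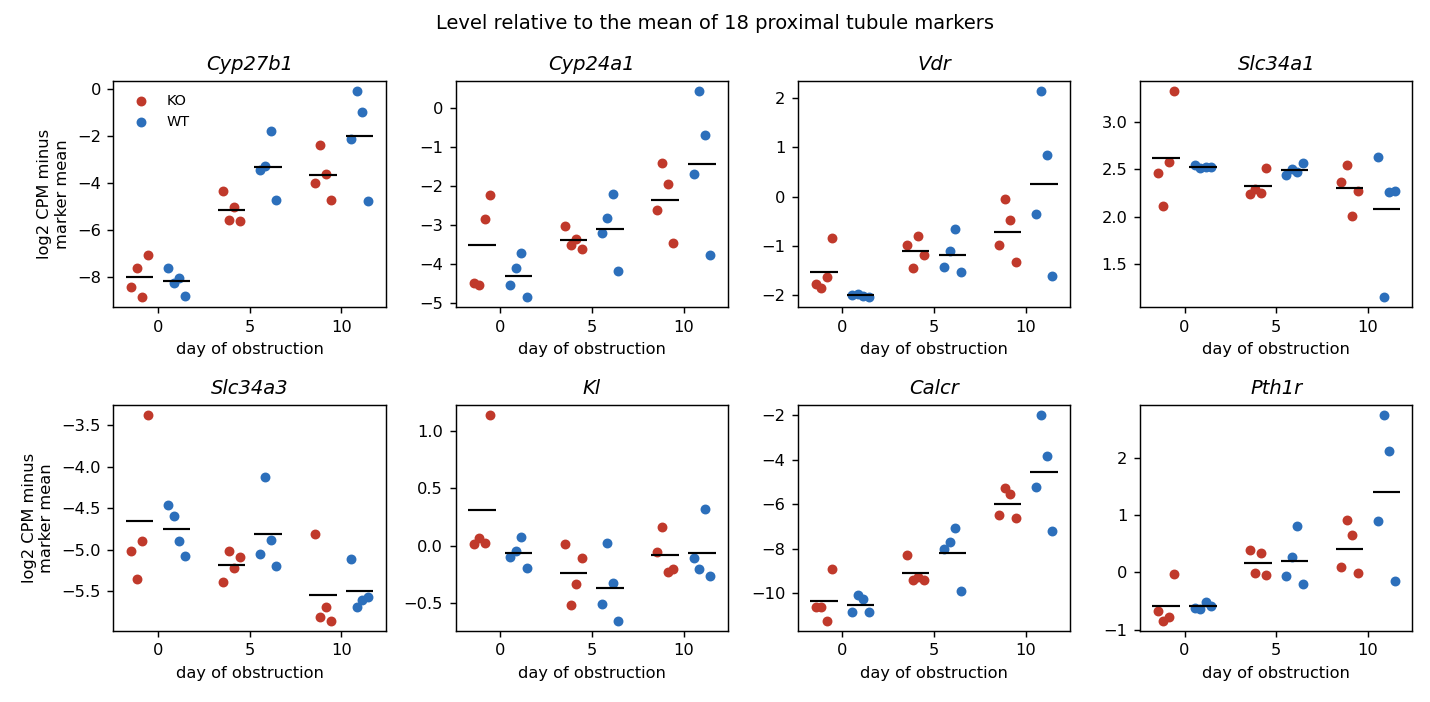
Log2 level of each gene minus the mean log2 level of 18 proximal tubule markers, per library, KO left of WT within each day. The group means of Slc34a1 and Kl keep a similar distance from the markers across days, with KO day 0 replicate 4 above and, for Slc34a1, WT day 10 replicate 2 below the rest. In KO day 0 replicate 4 the marker mean itself was low, at 9.57 against 10.15 to 10.44 in the rest of its group. The group means of Pth1r, Vdr, Cyp27b1, Cyp24a1 and Calcr lie higher relative to the markers after obstruction, with WT day 10 replicates 2 and 3 highest.

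Other genes of the axis were read from a list of 64, of which 63 were in the counts and 54 were tested. On day 10 against day 0, 15 were called higher and 25 lower in KO, where 28.3% of all genes were higher and 26% lower, and 16 higher and 25 lower in WT, where these shares were 37.8% and 30.3%. As shares of the 54, the calls were 27.8% and 46.3% in KO and 29.6% and 46.3% in WT. All fold changes of these genes are log2 values ± SE on day 10 against day 0 from the same edgeR fit. On day 5, 13 were higher and 13 lower in KO (24.1% each), beside 22.4% and 17% of all genes. In WT the day 5 counts were 15 and 22 (27.8% and 40.7%), beside 31% and 25.6%. Without KO day 0 replicate 4 the KO counts were 16 higher and 19 lower on day 10, and 13 and 8 on day 5. Of all genes, 51.2% and 36.5% were then called in either direction in KO, against 54.3% and 39.5% with all libraries. The KO counts were 13 and 12 on day 10, and 11 and 6 on day 5, without KO day 0 replicates 3 and 4. In that fit 40.5% and 24.5% of all genes were called in KO on days 10 and 5. The WT counts on day 10 were 19 and 20 without WT day 10 replicates 2 and 3, where 56.4% of all genes were called, against 68.1% with all libraries. The counts of each group of genes below are small, and are to be read against the same shares of all genes. Between genotypes 1 was called, Gc on day 0. Gc, the vitamin D binding protein, averaged 40.6 CPM in KO and 8.25 CPM in WT on day 0 (log2 fold change 2.30 ± 0.58, adjusted p = 0.0229). KO day 0 replicate 4 alone had 125.5 CPM, and without that library the difference was 0.57 (adjusted p = 0.383).

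Among other phosphate genes, Slc34a2 (NaPi-IIb), the carrier of intestine and lung, moved opposite to Slc34a1 and Slc34a3. It averaged 65.1 ± 19.0 CPM in KO on day 10, against 5.28 ± 0.488 CPM in KO on day 0, and 96.5 ± 45.2 CPM in WT on day 10, against 7.18 ± 1.46 CPM in WT on day 0. Its log2 fold change was 3.62 ± 0.36 in KO (adjusted p = 1.46e-07) and 3.75 ± 0.35 in WT (adjusted p = 2.57e-08), or 3.06 in WT without WT day 10 replicates 2 and 3. Stc2, the secreted stanniocalcin 2, rose by 2.35 ± 0.24 in KO and 2.87 ± 0.25 in WT. Xpr1, the phosphate exporter, fell in both (-0.90 ± 0.21 in KO and -1.29 ± 0.21 in WT, adjusted p = 0.00108 and 1.65e-05), and Slc20a2, a widely expressed phosphate importer, was called lower in WT (-0.86 ± 0.15, adjusted p = 2.81e-05) but had -0.17 ± 0.14 in KO (adjusted p = 0.317). In all, 4 of 12 phosphate handling genes were higher and 7 lower on day 10 in each genotype, with 4 lower in KO without KO day 0 replicate 4 and 2 without KO day 0 replicates 3 and 4. Of 7 genes of FGF23 signalling tested, 2 were higher and 3 lower in each genotype. Egr1, an early target of FGF receptor signalling and of many other stimuli, rose by 4.77 ± 0.51 in KO and 3.89 ± 0.50 in WT. Fgfr4 and Fgfr3, receptors that can pair with klotho, had -0.78 ± 0.19 and -0.82 ± 0.31 in KO and -1.38 ± 0.19 and -1.22 ± 0.31 in WT, all called lower, as was Galnt3, which glycosylates FGF23 (-0.65 ± 0.15 in KO and -0.94 ± 0.15 in WT). The KO value of Fgfr3 did not pass without KO day 0 replicate 4 (-0.77, adjusted p = 0.0597), and its WT value was -0.59 without WT day 10 replicates 2 and 3.

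Of 13 genes of vitamin D uptake, metabolism and partners, 1 was higher and 9 lower on day 10 in KO, and 1 higher and 10 lower in WT. Those lower were 4 in KO without KO day 0 replicates 3 and 4, and 7 in WT without WT day 10 replicates 2 and 3. The one that rose was Gc, by 2.02 ± 0.55 in KO (3.76 without KO day 0 replicate 4) and 4.30 ± 0.62 in WT. Lrp2 (megalin), which takes up filtered vitamin D binding protein, fell by 2.37 ± 0.54 in KO (log2 fold change -2.37, adjusted p = 0.001) and 2.89 ± 0.55 in WT (-2.89, adjusted p = 0.000101), and Amn, which anchors its partner cubilin, had -0.80 ± 0.27 and -1.71 ± 0.27 in KO and WT. Hnf4a, a proximal tubule transcription factor, had -1.52 ± 0.38 in KO and -2.08 ± 0.39 in WT. The WT values were -2.13 for Lrp2 and -1.44 for Hnf4a without WT day 10 replicates 2 and 3, and without KO day 0 replicates 3 and 4 Amn did not pass in KO (-0.76, adjusted p = 0.074). Of 11 calcium reabsorption genes, 2 were higher and 5 lower in KO and 3 higher and 4 lower in WT. Trpv6, an epithelial calcium channel, rose by 2.75 ± 0.34 in KO and 3.37 ± 0.35 in WT, while Calb1 (calbindin-D28k) had -3.98 ± 0.62 in KO and -3.62 ± 0.61 in WT and Slc8a1, the sodium-calcium exchanger, -1.91 ± 0.31 in KO and -1.82 ± 0.31 in WT, all called. Atp2b1, a plasma membrane calcium pump, had 0.30 ± 0.14 in KO (adjusted p = 0.0697) and 0.61 ± 0.14 in WT (adjusted p = 0.000689), and its KO value passed without KO day 0 replicate 4 (0.38, adjusted p = 0.0366). The WT value of Calb1 was -3.00 ± 0.73 without WT day 10 replicates 2 and 3.

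In the parathyroid hormone and calcitonin family 5 of 7 genes were higher on day 10 in KO and none lower, and 4 were higher and 1 lower in WT. Ramp1 and Ramp2 encode partner proteins that set which peptides calcitonin-type receptors bind. Ramp1 rose by 2.63 ± 0.35 in KO and 2.49 ± 0.34 in WT, and Ramp2 by 0.58 ± 0.24 in KO (adjusted p = 0.0496) and 1.32 ± 0.25 in WT. Calcrl, the receptor related to Calcr, rose by 0.65 ± 0.23 in KO and 1.53 ± 0.24 in WT, and Gprc5a, an orphan receptor, by 2.48 ± 0.29 in KO and 2.21 ± 0.29 in WT. Without KO day 0 replicates 3 and 4, Calcrl (0.52, adjusted p = 0.14) and Ramp2 (0.53, adjusted p = 0.159) did not pass in KO, leaving 3 of 7 higher. Of 4 genes tested among the klotho shedding enzymes and klotho's relatives, 1 was higher and 1 lower in KO and 2 were higher in WT. Adam10 and Adam17, proteases that can release klotho from the membrane, had 0.73 ± 0.14 (adjusted p = 0.0002) and 0.46 ± 0.22 (0.0848) in KO and 0.77 ± 0.14 (5.38e-05) and 1.14 ± 0.22 (0.000129) in WT. Bace1, another such protease, had 0.08 in KO and -0.04 in WT (adjusted p = 0.702 and 0.82). Lctl, a relative of klotho, had -0.92 ± 0.36 in KO (adjusted p = 0.0371) and -0.56 ± 0.36 in WT (adjusted p = 0.173), and its KO call was lost without KO day 0 replicate 4 (-0.64, adjusted p = 0.164). Without WT day 10 replicates 2 and 3, Adam17 had 0.46 ± 0.09 in KO (adjusted p = 0.000114) and 0.43 ± 0.10 in WT (adjusted p = 0.0016).

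For each member the genes nearest in pattern were found as those with the smallest root mean square difference of centred log2 CPM over the 24 libraries. Fbp1, a gluconeogenic enzyme and 1 of the 18 proximal tubule markers, was nearest to Slc34a1 (0.17), ahead of Bhmt2 and Upb1 (0.30 each), and was among the 3 nearest to Slc34a3 (0.40), where Fam151a (0.33) and Car14 (0.37) came first. Kl had Slc6a20b (0.21) and Chrna4 (0.25) among its 3 nearest. Pth1r was nearest to Hpn (0.15), Shpk (0.15) and Scrn2 (0.16), and Vdr to Acsf3 (0.14), Cobll1 (0.15) and Aco1 (0.15). Cyp24a1 was nearest to Nr1d1 (0.37), a clock repressor, Pfkm (0.41) and Grb7 (0.42). The distances were larger for Cyp27b1, with Sult5a1 (0.51), Asgr2 and Rasl10a (0.53 each), and for Calcr, with Pamr1 and Msh5 (0.60 each) and AI414108 (0.61). Among the members themselves the smallest distances were Vdr to Pth1r (0.23), Slc34a1 to Kl (0.36) and Slc34a1 to Slc34a3 (0.41).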

How the data were processed

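Total RNA of mouse kidney (1 µg) went into stranded mRNA libraries, per the labels' protocols, and reads were processed with bcl2fastq 2.16, STAR 2.5 and Cufflinks against mm9, per the submitters' processing notes. The authors deposited raw read counts per gene and a table of FPKM values (fragment counts scaled by gene length and library depth); the annotation and the strand setting of the counts are not given in the sources used here. All 24 columns matched a label.

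Counts were filtered (filterByExpr, minimum count 10, minimum total 15), scaled by TMM and fitted with edgeR 4.0.16 (quasi-likelihood, robust, 6 group means, 18 residual degrees of freedom) in R 4.3.3, with Benjamini-Hochberg adjustment over 15080 genes in each of 11 comparisons at 0.05. All 8 members passed the filter. CPM used TMM-scaled totals. Ratios used a pseudocount of 0.5 counts and two-sided exact permutation tests (scipy 1.17.1). Alternatives were RLE factors, 2 other filters, DESeq2 1.42.0, limma 3.58.1 on log2(FPKM + 1) or log2(FPKM + 0.1), only the groups compared, a replicate block and leaving out libraries. The scripts were tested on simulated data.

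The members, the gene lists, the motifs and the tests were chosen with earlier results of these data known. Other genes were named by rule: the 4 of each list with the lowest adjusted p, and the 3 genes nearest in pattern to each member. One gene that this rule names is not reported here. Replicate pairs differed by more than sampling noise. Same-numbered replicates deviated together in all 4 pairs between KO and WT on day 10 (correlations 0.141 to 0.306) and between days 10 and 5 in WT (0.105 to 0.361). In the other 7 comparisons at most 2 of 4 pairs did, with up to 0.591 between KO and WT on day 5. What the numbers share is not stated in the labels.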

Additional observations from a re-analysis of the deposited data

Results flagged for a closer look

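In the KO day 0 group the log2 ratio of Slc34a3 to Slc34a1 counts had 1 library far from the others. Replicate 4 was at -6.70, the next library was at -7.47, and the gap took up 0.982 of the group's range. Chance flags about 1 in 20 groups of this size. It was the same library that had 877.7 CPM of Xist and the lowest sum of proximal tubule markers on day 0, a sum that rests in large part on Kap, and the part of these in the ratio was not tested.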

How the results depend on the processing

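Of the members' fold changes, 2059 of 2112 kept their side of the threshold in the fits that left out 1 library, as did 879 of 944 under the other settings, and no called value changed its sign. The count of members called moved by over 1.5 times in these cases. For KO against WT it was 1 on day 0 with only the groups compared and 0 on day 5 without KO day 0 replicates 3 and 4, a setting chosen after the data were seen. For day 5 against day 0 on log2(FPKM + 1), log2(FPKM + 0.1) and unfiltered log2(FPKM + 1), it was 2, 1 and 2 in KO and, for the first 2, 3 and 2 in WT; it was 1 in KO without KO day 0 replicates 3 and 4. For day 10 against day 0 in KO the same 3 FPKM settings gave 4, 4 and 5. For day 10 against day 5 the first 2 FPKM settings gave 0 and 0 in KO, and the 3 settings gave 4, 2 and 2 in WT, where only the groups compared gave 0, the replicate block 3 and the fit without WT day 10 replicates 2 and 3 gave 0. Calcr was not tested in the filtered FPKM settings, and the FPKM scale lies higher for the median gene; the cause of the other changes was not tested.

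Without 1 library at a time the number of members called ranged from 0 to 2 for KO against WT on days 5 and 10, from 3 to 7 in KO and 4 to 7 in WT for day 5 against day 0, from 7 to 8 for day 10 against day 0 in KO, and from 0 to 1 in KO and 1 to 6 in WT for day 10 against day 5. The log2 ratio of Cyp24a1 to Cyp27b1 ranged from 1.36 to 1.73 for KO against WT on day 5, from -3.19 to -2.21 and -3.64 to -2.66 on days 5 and 10 against day 0 in KO, and from -3.98 to -3.50 and -3.62 to -3.20 in WT; the ratio of Slc34a3 to Slc34a1 on day 10 in WT ranged from -0.66 to -0.47. Leaving out 1 library raises the smallest exact p to 0.0571. Pairing same-numbered replicates cannot change these mean differences (1.57, -2.73, -3.17, -3.71, -3.35 and -0.56). Its exact sign-flip test, whose smallest p is 0.125, could not pass. With a pseudocount of 2 counts the last difference was -0.34, and from FPKM -0.10, in a group where replicate 2 had 0.101 CPM of Slc34a3. In comparisons whose replicate numbers share nothing known, the block added Slc34a1 on day 5 in KO (-1.73, adjusted p = 0.0494).

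Depth limits Calcr and, on day 10, Slc34a3. WT day 10 replicate 4 and replicates 2 and 3 pull the members in opposite directions, so the genotype comparison on day 10 depends on which are kept.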

Other observations

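The hormones of the axis were hardly transcribed in these kidneys. Pth, parathyroid hormone, had 0 counts in all 24 libraries. Fgf23 had 0 counts in KO and 0 in WT on day 0, 1 in KO and 0 in WT on day 5, and 2 in KO and 22 in WT on day 10, where 1 library reached 0.962 CPM. Pthlh, the parathyroid hormone related peptide, totalled 5 counts in KO and 7 in WT on day 0, 15 in KO and 13 in WT on day 5, and 30 in KO and 28 in WT on day 10. These genes did not pass the filter and were not tested.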
